A study of Mus musculus with 70 samples.

Results

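The genes described are 7 mouse Fc receptor and Fc receptor-like genes (Fcgr1, Fcgr2b, Fcgr3, Fcgr4, Fcer1g, Fcrla and Fcrlb), taken by name from 24429 genes, after the estimated counts of each gene's transcripts had been added together. RNA was sequenced from 70 libraries of dendritic cells and monocytes sorted from mouse spleen. All mice were 8 to 10 weeks old and had received PBS by injection 5 h before the spleens were taken. The study set NOD mice, which develop autoimmune diabetes spontaneously, against C57BL/6.g7 mice (B6g7 below), a C57BL/6 strain that carries the MHC haplotype of NOD. It also set NOD Rag1-/- against B6 Rag1-/- mice, which lack mature B and T cells. The labels name these B6 mice without g7, so this pair may differ in MHC haplotype as well. The populations were plasmacytoid dendritic cells (pDC), 2 kinds of conventional dendritic cell called cDC1 and cDC2, dendritic cells that derive from monocytes (moDC) and, in the Rag-sufficient strains only, monocytes themselves. For cDC1 and for cDC2 there were 6 libraries per Rag-sufficient strain, for moDC 5 from NOD and 6 from B6g7 mice, and for pDC and monocytes 3 per strain. The Rag1-/- groups held 3 libraries each, apart from moDC of B6 Rag1-/- mice with 2. The labels do not say whether a library came from 1 mouse or several, so that p-values measure the spread between these libraries.

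Fc receptors bind the constant part of antibodies. Fcgr1, the high-affinity IgG receptor, and Fcgr3 and Fcgr4, which bind IgG in immune complexes, are activating receptors that reach the cell surface with Fcer1g, the common Fc receptor gamma chain, whose immunoreceptor tyrosine-based activation motif (ITAM) recruits the kinase Syk. Fcgr2b is the inhibitory IgG receptor, which carries an inhibitory motif and recruits the phosphatase SHIP1. Fcrla and Fcrlb encode relatives that stay inside the cell and are best known from B cells. In dendritic cells the balance of activating receptors and Fcgr2b sets how immune complexes act on maturation and antigen presentation.

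Promoter windows are given for the 3 members with the largest NOD to B6g7 differences in cDC1, which lie close together on the minus strand of chromosome 1. Each runs from 250 bases before to 50 bases after the RefSeq start site, 5′ to 3′ on the gene's own strand, from RefSeq sequence of build GRCm38.p6. Capitals mark matches, on either strand, to 4 motifs: GAGGAA (the PU.1 core), the composite element of an ETS and an IRF site, the interferon response element, and TGANTCA (AP-1). Of 32851 promoters of the same length, 28.3% held the PU.1 core, 2.72% the composite element, 3.44% the interferon response element and 7.81% the AP-1 motif.
Fcgr2b promoter, chr1:170976022-170976321: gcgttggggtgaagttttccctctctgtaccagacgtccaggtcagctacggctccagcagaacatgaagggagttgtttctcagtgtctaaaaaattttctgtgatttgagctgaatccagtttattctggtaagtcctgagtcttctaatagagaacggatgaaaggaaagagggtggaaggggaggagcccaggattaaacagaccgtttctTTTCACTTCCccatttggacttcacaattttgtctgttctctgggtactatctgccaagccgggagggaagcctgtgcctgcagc
Fcrla promoter, chr1:170927534-170927833: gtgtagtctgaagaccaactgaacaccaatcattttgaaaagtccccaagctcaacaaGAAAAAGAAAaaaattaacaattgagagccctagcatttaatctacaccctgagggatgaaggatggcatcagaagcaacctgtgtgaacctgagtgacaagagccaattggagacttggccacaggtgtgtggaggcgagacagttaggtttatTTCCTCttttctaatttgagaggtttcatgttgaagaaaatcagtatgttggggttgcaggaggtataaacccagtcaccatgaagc
Fcrlb promoter, chr1:170912892-170913191: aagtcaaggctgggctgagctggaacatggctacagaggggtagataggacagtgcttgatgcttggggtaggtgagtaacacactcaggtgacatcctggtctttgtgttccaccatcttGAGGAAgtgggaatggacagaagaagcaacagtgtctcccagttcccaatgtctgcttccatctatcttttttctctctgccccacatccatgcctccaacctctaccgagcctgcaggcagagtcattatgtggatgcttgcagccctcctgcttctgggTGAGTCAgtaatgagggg
The Fcgr2b window held the ETS-IRF composite element at position -35 from the start. In the Fcrla window, the interferon response element lay at -192 and GAGGAA at -37. The Fcrlb window held GAGGAA at -129 and TGANTCA at 33 after the start. The recorded Fcrlb transcript has 1284 bases, all of them coding. Its start site is therefore the start codon, and the Fcrlb window may not be that of the transcription start. No match overlapped another, and a match describes these letters only. The windows are the reference sequence, which comes from C57BL/6J, and NOD sequence was not analysed here. Whether NOD sequence differences at the members changed how reads were assigned, and so the counts below, was not examined.

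A further pair of sequences bears on how Fcgr2b and Fcgr3 were counted, because the genes share a stretch of coding sequence. The lines below are 150 bases of each coding sequence (GENCODE vM21 on GRCm38), from coding base 267 of Fcgr2b and 252 of Fcgr3, with the 2 bases that differ in capitals.
Fcgr2b coding bases 267 to 416: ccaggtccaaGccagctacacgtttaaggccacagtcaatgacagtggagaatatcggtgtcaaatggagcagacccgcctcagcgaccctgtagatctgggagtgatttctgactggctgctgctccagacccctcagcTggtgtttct
Fcgr3 coding bases 252 to 401: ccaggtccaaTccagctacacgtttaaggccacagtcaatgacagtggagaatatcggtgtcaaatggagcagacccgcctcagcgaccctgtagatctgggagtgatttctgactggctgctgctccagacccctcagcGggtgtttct
The longest run of identical bases was 129, and 17% of the 50-base windows of Fcgr2b coding sequence occurred in Fcgr3, as did 22% of those of Fcgr3 in Fcgr2b. Reads inside this run can be assigned to either gene, so the split between them is uncertain there, and no other pair of members shared a 50-base window. Fcgr2b is also made in a longer and a shorter coding form, which differ by exon 6. This exon of 141 coding bases encodes an insert in the cytoplasmic tail that is known to hold the receptor at the surface of B cells, whereas the form without it is the main form of macrophages.
Fcgr2b exon 6, chr1:170963325-170963465, minus strand: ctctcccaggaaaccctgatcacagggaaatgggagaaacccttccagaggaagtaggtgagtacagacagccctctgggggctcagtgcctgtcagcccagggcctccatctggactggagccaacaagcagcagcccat

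Library totals were 14.7 to 20.6 M counts in the Rag1-/- set and 12.8 to 19.7 M in the Rag-sufficient set. Levels below are TMM-scaled CPM (counts set to a common library size), which are not corrected for gene length, so only levels of the same gene are compared. Strain differences are log2 changes from edgeR's quasi-likelihood test, with sort date in the model of the Rag-sufficient set only, called at a Benjamini-Hochberg adjusted p under 0.05 over all genes tested (13413 in the Rag-sufficient set and 13137 in the Rag1-/- set). The cDC1 markers summed to a median of 11012 CPM in cDC1 of NOD mice and 10731 CPM in cDC1 of B6g7 mice, and the 12 pDC markers to 25302 CPM in pDC of NOD mice and 26703 CPM in pDC of B6g7 mice. The cDC2 list did not set cDC2 apart from moDC, at a median of 1639 CPM in cDC2 and 2537 CPM in moDC of NOD mice, and the monocyte list summed to 67234 CPM in monocytes and 16303 CPM in moDC of NOD mice. All Rag1-/- libraries were sequenced in run 1 and all others in run 2. Genotype, run, sort date, number of sorted cells and the B6 strain used, with its MHC haplotype, therefore cannot be told apart between the sets. Rag1 was at 0.445 CPM or less in every Rag-sufficient library and between 0.13 and 3.49 CPM in Rag1-/- libraries, and gene totals do not show which part of the transcript these reads cover. In sorted bulk RNA, fewer cells of a contaminating type and less RNA per cell cannot be told apart.

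Fcgr2b, the inhibitory receptor, was lower in NOD than in B6g7 mice in cDC1, cDC2, moDC and monocytes, and higher in NOD in pDC. In cDC1 of NOD mice its lowest, median and highest levels were 5.51, 9.55 and 18.3 CPM, against 103, 126 and 160.1 CPM in cDC1 of B6g7 mice. The groups lay far apart, with every NOD library below every B6g7 library. The log2 change was -3.58 ± 0.16 (SE, adjusted p = 5.8e-21, edgeR). Monocytes of NOD mice had 92.6, 111 and 114 CPM, against 245, 302 and 267 CPM in monocytes of B6g7 mice. These groups did not overlap either, and the log2 change was -1.37 ± 0.20 (SE, adjusted p = 2.4e-06, edgeR). In pDC the order was reversed, with 109.9, 121 and 160.3 CPM in NOD mice and 56.9, 51.9 and 55.4 CPM in B6g7 mice. Every NOD library of pDC was above every B6g7 library, with a log2 change of 1.29 ± 0.20 (SE, adjusted p = 9.2e-06, edgeR).

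The Fcgr2b differences in cDC2 and moDC were smaller. In cDC2 the NOD libraries spanned 6.62 to 20.9 CPM (median 12.4), against 8.15 to 26 CPM (median 18.7) in B6g7 mice. The groups overlapped over most of their range, and the log2 change was -0.48 ± 0.16 (SE, adjusted p = 0.02, edgeR). Without 1 of the libraries cDC2 B6g7 5, cDC2 NOD 4 or cDC2 NOD 6 the adjusted p was 0.095, 0.066 or 0.059. Within the cDC2 libraries sorted on 10.26.2015 the log2 change was -0.29 (adjusted p = 0.37), and within those of 01.05.2016 it was -0.70 (adjusted p = 0.018, edgeR). Libraries cDC2 B6g7 5 and 6, both of 01.05.2016, had RNA integrity numbers under 7, with 3.9 in library 6. In moDC the NOD libraries had 139, 189, 133, 119.6 and 123 CPM, and the B6g7 libraries spanned 150.2 to 310.2 CPM (median 202). All moDC libraries of NOD mice but replicate 2 lay below all of B6g7, the log2 change was -0.50 ± 0.15 (SE, adjusted p = 0.01), and without moDC NOD 1 the adjusted p was 0.063 (edgeR). Within 10.26.2015 the moDC change was -0.66 (adjusted p = 0.021), and within 01.05.2016 it was -0.37 (adjusted p = 0.11, edgeR).

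**Figure D1:**
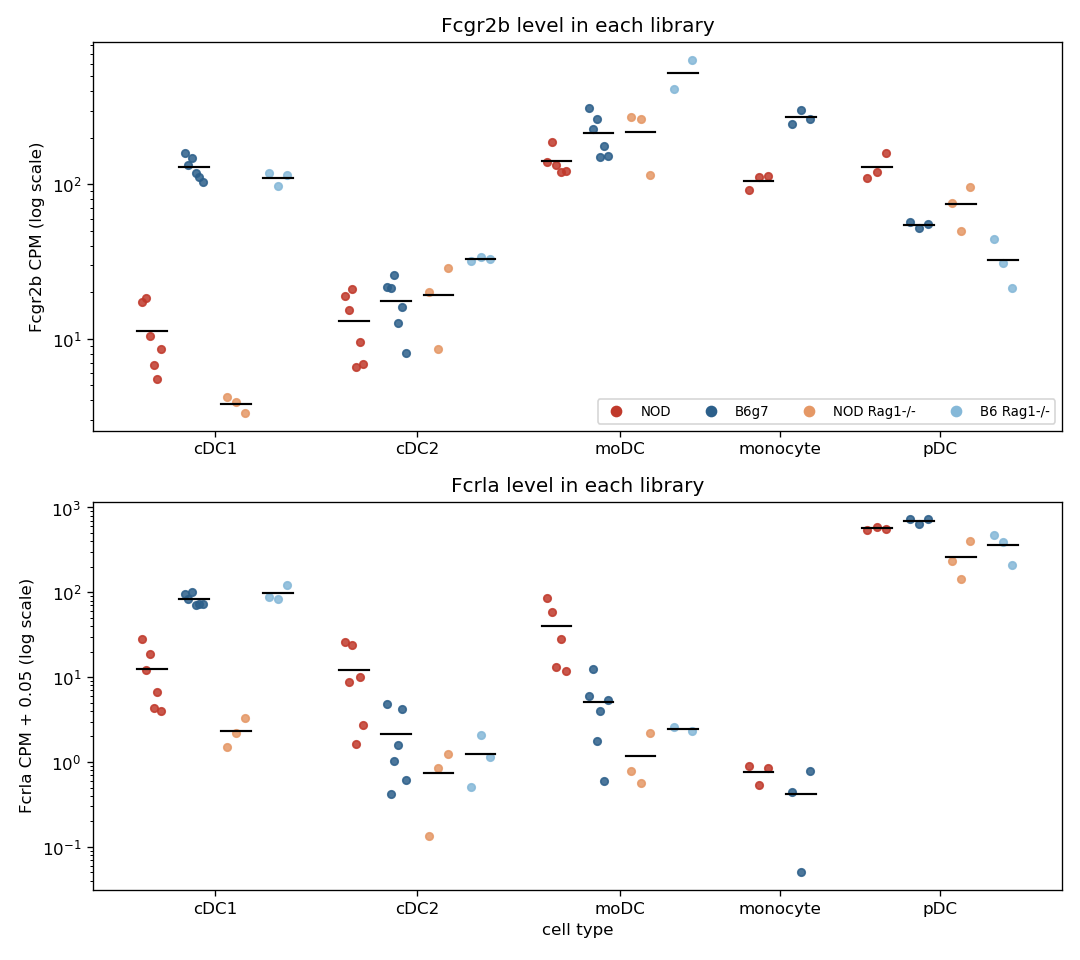
Fcgr2b and Fcrla levels (TMM-scaled CPM, log axis) in every library of each cell type, with NOD left of B6g7 and NOD Rag1-/- left of B6 Rag1-/-. In cDC1 every Fcgr2b point of NOD mice is at or under 18.3 CPM and every point of B6g7 mice at or over 103 CPM, whereas in pDC the NOD points are the higher ones.

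The same direction in cDC1 was measured in mice without mature lymphocytes. Fcgr2b had 4.18, 3.88 and 3.31 CPM in cDC1 of NOD Rag1-/- mice, against 118, 97.8 and 115 CPM in cDC1 of B6 Rag1-/- mice. The 2 groups did not overlap, with a log2 change of -4.87 ± 0.46 (SE, adjusted p = 1.8e-06, edgeR). The change in the Rag1-/- set minus the change in the Rag-sufficient set was -1.24 ± 0.36 (SE, adjusted p = 0.22, edgeR), which did not pass, and 0.21% of genes did. In pDC, Fcgr2b had 76.2, 50.1 and 96.5 CPM in NOD Rag1-/- mice and 44.2, 31.2 and 21.3 CPM in B6 Rag1-/- mice. These groups did not overlap, but the log2 change of 1.19 ± 0.39 missed the threshold (SE, adjusted p = 0.08, edgeR). In moDC of NOD Rag1-/- mice it had 275, 266 and 115 CPM, against 414 and 638 CPM in B6 Rag1-/- mice. Neither the moDC difference (-1.27 ± 0.42, adjusted p = 0.19) nor the cDC2 difference (-0.79 ± 0.39, adjusted p = 0.43) passed in edgeR's test.

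Between cell types, Fcgr2b separated cDC2 from cDC1 differently in each strain. In B6g7 mice it was lower in cDC2 than in cDC1, with a mean of 17.7 CPM in cDC2 and a log2 change of -2.89 ± 0.16 (SE, adjusted p = 1.3e-19, edgeR), a contrast in which 50.5% of genes were called. In NOD mice the cDC2 minus cDC1 log2 change was 0.21 ± 0.16 (SE, adjusted p = 0.29, edgeR), and the ranges overlapped. For the Rag1-/- strains the same contrast was -1.73 ± 0.39 (adjusted p = 0.0061) in B6 Rag1-/- mice, where 11.2% of genes were called, and 2.35 ± 0.41 (adjusted p = 0.00056) in NOD Rag1-/- mice, where 13.3% were called. Fcgr2b was higher in moDC than in cDC2 by nearly the same amount in both strains, with log2 changes of 3.60 ± 0.16 (adjusted p = 9.9e-21) in NOD and 3.62 ± 0.16 (adjusted p = 7.2e-21) in B6g7 mice. In order of mean level, NOD mice had moDC, pDC, monocytes, cDC2 and cDC1, and only the step between monocytes (106 CPM) and cDC2 (13.1 CPM) was free of overlap.

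The share of Fcgr2b counts assigned to the longer coding form, with exon 6, differed by cell type. It was highest in cDC1 of B6 Rag1-/- mice, at 78 ± 9.84% (SD, n = 3), and lowest in monocytes of B6g7 mice, at 9.45 ± 1.88% (SD, n = 3). In monocytes of NOD mice the share was 10.5 ± 1.18% (SD, n = 3), close to that of B6g7 monocytes. In moDC it was 31.6 ± 5.5% in NOD (SD, n = 5) and 23.8 ± 2.61% in B6g7 mice (SD, n = 6). In cDC1 it was 54 ± 15.9% in NOD and 73.8 ± 2.89% in B6g7 mice (SD, n = 6 each), and the NOD libraries, with few Fcgr2b counts, ranged from 25.6% to 73.4%. Both forms were lower in cDC1 of NOD mice: the longer averaged 6.15 ± 3.52 CPM in NOD and 95 ± 15.9 CPM in B6g7 mice, and the shorter 5.03 ± 2.35 CPM in NOD and 33.9 ± 7.64 CPM in B6g7 mice (SD, n = 6 each). In pDC the shares were 55.1 ± 7.68% in NOD and 55.8 ± 6.37% in B6g7 mice (SD, n = 3 each), so the 2 strains lay within the spread of their libraries. The shares rest on the estimated division of reads between transcripts and were not tested. The transcript with exon 6 is longer, at 3544 bases against 1462, and has a last exon of 2484 bases against 543. Counts were not corrected for length, and reads in the last exon also divide the forms. A share is therefore read only between groups and is not the percent of molecules with exon 6.

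**Figure D2:**
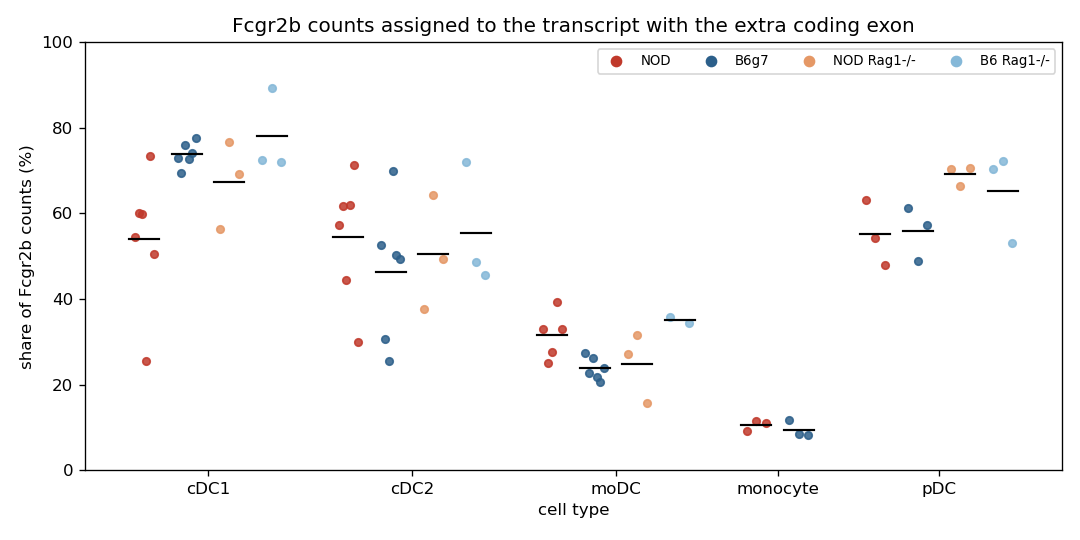
Percent of Fcgr2b counts, not corrected for length, assigned to the transcript with exon 6 and the longer last exon. Each point is a library, in each cell type with NOD left of its B6 counterpart. Monocyte libraries lie near 10%, whereas cDC1 libraries of B6g7 mice lie between 69.4% and 77.7%.

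Fcer1g, the signalling chain that the activating receptors share, fell in NOD mice in all 5 cell types. In pDC it had 588, 468 and 583 CPM in NOD mice, against 1598, 1530 and 1785 CPM in B6g7 mice, a log2 change of -1.55 ± 0.20 (SE, adjusted p = 1.8e-07, edgeR). Monocytes of NOD mice had 879, 938 and 873 CPM, against 1762, 1966 and 1978 CPM in B6g7 mice, a log2 change of -1.10 ± 0.20 (SE, adjusted p = 7.5e-05, edgeR). Neither cell type showed overlap between strains. In cDC1 the level ran from 44.6 to 182 CPM in NOD mice (median 89.5), against 110.4 to 366 CPM in B6g7 mice (median 223). In cDC2 it ran from 329 to 1167 CPM (median 573) in NOD mice, against 577 to 2002 CPM (median 996) in B6g7 mice. These ranges overlapped over both sort dates together, and within a date no NOD library reached a B6g7 library in either type. The log2 changes were -1.16 ± 0.14 in cDC1 (SE, adjusted p = 3e-08) and -0.79 ± 0.14 in cDC2 (SE, adjusted p = 3.4e-05, edgeR).

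The Fcer1g level differed between the sort dates in cDC1, cDC2 and moDC, with the widest gap in moDC of B6g7 mice. In cDC1 the means on 10.26.2015 and 01.05.2016 were 155 and 48.3 CPM in NOD and 353 and 111 CPM in B6g7 mice. In cDC2 they were 977 and 335 CPM in NOD and 1679 and 583 CPM in B6g7 mice. The moDC values follow. Libraries of NOD mice had 1278 and 2508 CPM on 10.26.2015 and 681, 508 and 605 CPM on 01.05.2016. Those of B6g7 mice had 5603, 8415 and 6826 CPM on 10.26.2015 and 855, 951 and 1031 CPM on 01.05.2016. On both dates every NOD library was below every B6g7 library, and the log2 change over both dates was -1.18 ± 0.15 (SE, adjusted p = 1.2e-07, edgeR). Within 10.26.2015 it was -1.84 (adjusted p = 7.8e-05), and within 01.05.2016 it was -0.68 (adjusted p = 5.4e-06, edgeR). Fewer cells were sorted per library on 10.26.2015 than on 01.05.2016 in these cell types. Whether this or another difference between the dates bears on the level was not tested. A test of whether the Fcer1g strain change differed between the 5 cell types gave an adjusted p of 0.12 (edgeR).

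**Figure D3:**
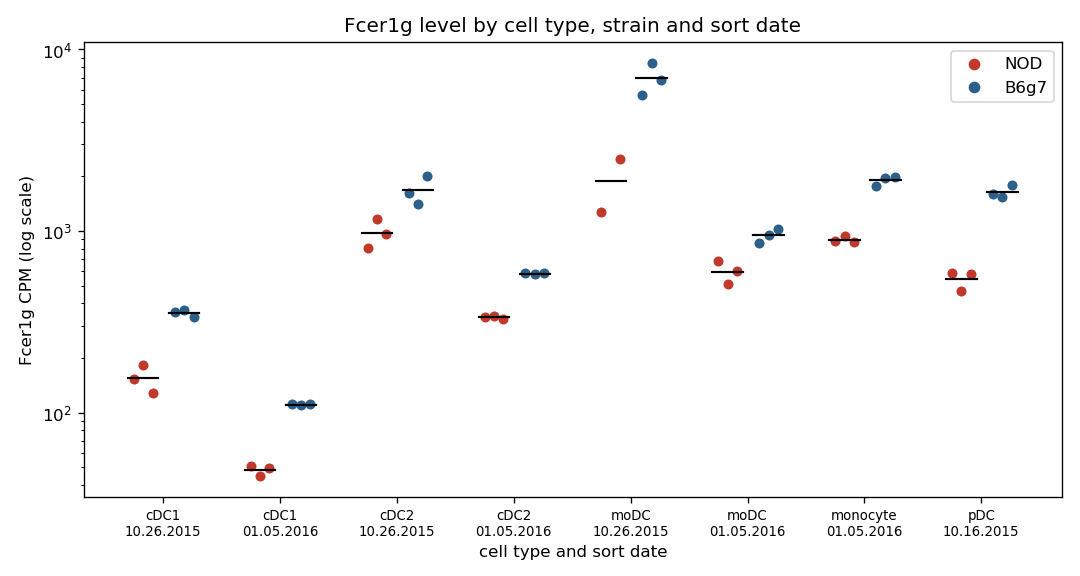
Fcer1g level (TMM-scaled CPM, log axis) per library, by cell type and sort date, with NOD left of B6g7. Within each date and cell type all NOD points lie below all B6g7 points, and moDC of 10.26.2015 lie above those of 01.05.2016 in both strains.

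In Rag1-/- mice the libraries of pDC disagreed with each other for Fcer1g. NOD Rag1-/- mice had 204, 218 and 814 CPM, against 5250, 5328 and 567 CPM in B6 Rag1-/- mice. The third B6 Rag1-/- library lay inside the NOD Rag1-/- range, and the log2 change was -3.18 ± 0.74 (SE, adjusted p = 0.018, edgeR). Without pDC B6 Rag1-/- 1, pDC B6 Rag1-/- 2 or pDC NOD Rag1-/- 2 the adjusted p was 0.072, 0.076 or 0.11, and without pDC NOD Rag1-/- 3 the log2 change was -4.17. In the same order of libraries, the 12 pDC markers summed to 11294, 9943 and 23073 CPM in NOD Rag1-/- mice and to 44026, 44708 and 12860 CPM in B6 Rag1-/- mice, so the libraries that stood apart for Fcer1g also did so for pDC markers, whose part in the result was not tested. The cDC1 change of -1.64 ± 0.70 in Rag1-/- mice did not pass (SE, adjusted p = 0.4, edgeR). In cDC2 Fcer1g had 289, 209.7 and 370.3 CPM in NOD Rag1-/- mice, against 628, 1215 and 852 CPM in B6 Rag1-/- mice, without overlap but with an adjusted p of 0.31 (log2 change -1.64, edgeR).

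The activating receptor Fcgr1 moved in opposite directions in moDC and pDC. In moDC of NOD mice it had 55.1, 94.5, 53, 35.3 and 54.4 CPM, whereas moDC of B6g7 mice ranged from 6.01 to 34.1 CPM with a median of 13.3. Every NOD library was above every B6g7 library, with a log2 change of 2.13 ± 0.34 (SE, adjusted p = 6.3e-06, edgeR). Within 10.26.2015 the log2 change was 1.64 (adjusted p = 0.11) and within 01.05.2016 it was 2.52 (adjusted p = 3.1e-06, edgeR). Markers of several cell types were higher in the same libraries. In NOD moDC, 5 of 12 monocyte and 5 of 12 red pulp macrophage genes were higher and 0 lower, where 16% of all genes were higher. Also higher were 11 of 12 neutrophil, 9 of 9 erythroid, 9 of 10 B cell and 10 of 12 cDC1 genes, with 1 cDC1 gene lower. Of 12 pDC genes 6 were higher and 1 lower, of 8 T cell genes 6 and 1, and of 7 plasma cell genes 6 and 0. Of the mast cell and basophil list, 6 of 7 genes were lower. On 01.05.2016 the monocyte list summed to 16303, 12751 and 14363 CPM in NOD moDC and to 7699, 8064 and 8630 CPM in B6g7 moDC. Over both dates it ranged from 12751 to 22490 CPM in NOD and from 7699 to 19231 CPM in B6g7 moDC, which overlapped. The part of other cell types in the Fcgr1 difference was not tested. In pDC the levels were low, at 0.148, 0 and 0.568 CPM in NOD mice and 6.04, 2.22 and 1.74 CPM in B6g7 mice. The NOD libraries were all lower, and the log2 change of -3.76 ± 0.86 (SE, adjusted p = 0.0019, edgeR) became -3.03 without pDC B6g7 1 and -5.29 without pDC NOD 3. Within the Rag-sufficient set monocytes had the highest mean Fcgr1, with 115, 143 and 143 CPM in NOD mice and 96.7, 95.2 and 122 CPM in B6g7 mice, and their ranges overlapped (log2 change 0.35 ± 0.42, adjusted p = 0.66, edgeR).

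Fcgr3, another activating receptor, fell in pDC and cDC2 of NOD mice. Its levels in pDC were 3.12, 1.3 and 1.3 CPM in NOD mice, against 12.5, 18.6 and 9.69 CPM in B6g7 mice. The pDC groups did not overlap, and the log2 change was -2.79 ± 0.47 (SE, adjusted p = 4.1e-05, edgeR). In cDC2 it ranged from 3.73 to 26.2 CPM (median 7.57) in NOD mice, against 8.15 to 28.6 CPM (median 14.9) in B6g7 mice. These ranges overlapped, and the log2 change of -0.80 ± 0.27 (SE, adjusted p = 0.027) stood at -1.25 (adjusted p = 0.0016) within 01.05.2016 and -0.42 (adjusted p = 0.59) within 10.26.2015 (edgeR). It missed the threshold when any 1 of cDC2 B6g7 3, 4 or 5 or cDC2 NOD 2, 3, 4 or 6 was left out, with log2 changes of -0.68 to -0.78 and adjusted p of 0.051 to 0.085. Libraries cDC2 B6g7 5 and 6, both of 01.05.2016, are those of low RNA integrity. Monocytes had 387, 448 and 409 CPM in NOD mice, against 657, 691 and 577 CPM in B6g7 mice, and although no library overlapped, the change of -0.64 ± 0.33 did not pass (SE, adjusted p = 0.21, edgeR). For that comparison the authors' deposited table gave a log2 fold change of -0.58 with an adjusted p of 0.0098.

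Fcgr4, which binds IgG2a and IgG2b, fell in cDC1, moDC, monocytes and pDC of NOD mice. In monocytes it had 21.7, 17.2 and 13.1 CPM in NOD mice, against 37.8, 40.7 and 77.4 CPM in B6g7 mice, with no overlap and a log2 change of -1.59 ± 0.32 (SE, adjusted p = 0.00041, edgeR). In pDC it had 2.3, 1.53 and 0.649 CPM in NOD mice and 4.08, 7.34 and 4.14 CPM in B6g7 mice, again without overlap, with a log2 change of -1.75 ± 0.46 (SE, adjusted p = 0.0069, edgeR). The adjusted p was 0.069 without pDC B6g7 2 and 0.06 without pDC NOD 3, where the log2 change was -1.41 in both cases. In moDC the NOD libraries had 91.2, 78.1, 68.7, 46.3 and 54.8 CPM, against a range of 41.7 to 284 CPM (median 139.6) in B6g7 mice. The moDC groups overlapped: within 10.26.2015 the log2 change was -1.44 (adjusted p = 0.0017) and within 01.05.2016 it was -0.21 (adjusted p = 0.49, edgeR). The change over both dates, -0.74 ± 0.24 (SE, adjusted p = 0.016), missed the threshold without moDC NOD 1 (-0.62, adjusted p = 0.094) or moDC NOD 2 (-0.55, adjusted p = 0.11). In cDC1 the ranges were 3.38 to 11 CPM (median 5.4) in NOD and 6.87 to 15.3 CPM (median 9.56) in B6g7 mice, which overlapped, with a log2 change of -0.84 ± 0.26 (SE, adjusted p = 0.015), or -0.55 (adjusted p = 0.25) within 10.26.2015 and -1.16 (adjusted p = 0.0026) within 01.05.2016 (edgeR).

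Markers of red pulp macrophages moved with the activating receptors in pDC. The red pulp macrophage list, of which all 12 genes were lower in NOD pDC, summed to 149.5, 99.9 and 118 CPM in NOD mice and 722, 572 and 512 CPM in B6g7 mice. The monocyte list in pDC summed to a median of 2089 CPM (2069 to 2254) in NOD mice and 8967 CPM (8906 to 9096) in B6g7 mice, but only 4 of its 12 genes were lower in NOD and 2 were higher. Most of that sum was Ly6c2, which pDC also express, at 1325 ± 140.1 CPM in NOD and 8561 ± 179.6 CPM in B6g7 mice (SD, n = 3 each). The part of these cells in the lower Fcgr1, Fcgr3, Fcgr4 and Fcer1g of NOD pDC was not tested. A similar pattern appeared in cDC2 of the Rag1-/- set, where Fcgr3 had 21.2, 10.8 and 38.7 CPM in NOD Rag1-/- mice and 46.1, 418 and 163 CPM in B6 Rag1-/- mice. There the red pulp macrophage list summed to 2064, 1203 and 4642 CPM in NOD Rag1-/- mice and to 2679, 20823 and 9885 CPM in B6 Rag1-/- mice, and the Fcgr3 change of -3.16 ± 0.83 did not pass (SE, adjusted p = 0.052, edgeR). The monocyte list in these libraries summed to 867, 1920 and 4046 CPM in NOD Rag1-/- mice and to 2822, 5528 and 3420 CPM in B6 Rag1-/- mice, and edgeR called 0 genes of either list in this comparison.

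Monocytes carried more Fcgr3 and Fcgr1 than moDC of the same sort date, 01.05.2016, whereas Fcgr4 went the other way. The monocyte minus moDC log2 change of Fcgr3 was 2.01 ± 0.31 in NOD (adjusted p = 1.5e-06) and 2.82 ± 0.33 in B6g7 mice (adjusted p = 4.4e-09), and that of Fcgr1 was 1.73 ± 0.39 (adjusted p = 0.00045) and 3.50 ± 0.42 (adjusted p = 1.1e-08) in the same strains. The Fcgr4 change was -1.40 ± 0.30 in NOD (adjusted p = 0.00026) and -0.55 ± 0.30 in B6g7 mice (adjusted p = 0.14, edgeR), of which only the NOD one passed. In these contrasts 43.7% of genes were called in NOD and 45.4% in B6g7 mice. Fcgr1 was also higher in moDC than in cDC2, by a log2 change of 4.83 ± 0.39 in NOD (adjusted p = 5.8e-13) and 2.44 ± 0.36 in B6g7 mice (adjusted p = 1e-06, edgeR), where 39.6% of genes were called in NOD and 35.3% in B6g7 mice.

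Fcrla, an intracellular relative of the Fc receptors, had its highest levels in pDC, where NOD mice had 549, 593 and 563 CPM and B6g7 mice 725, 645 and 725 CPM. The NOD libraries of pDC were all lower, but the change of -0.26 ± 0.58 did not pass (SE, adjusted p = 0.87, edgeR). The pDC minus cDC2 log2 change was 5.81 ± 0.55 in NOD (adjusted p = 2.2e-11) and 8.29 ± 0.63 in B6g7 mice (adjusted p = 6.1e-14), in contrasts where 64.2% of genes were called in NOD and 63.8% in B6g7 mice. The Rag-sufficient pDC were sorted on a date of their own, so that date and cell type cannot be told apart there. In the Rag1-/- set, pDC and cDC2 libraries share the date 02.02.2015. On that date NOD Rag1-/- mice had 142 CPM in pDC and 0.797 CPM in cDC2, 1 library each. The B6 Rag1-/- libraries had 471 CPM in pDC and 0.459 CPM in cDC2, again 1 each. In cDC1 Fcrla was lower in NOD mice, at 3.9 to 28 CPM (median 9.33), against 71.8 to 100.5 CPM (median 78.2) in B6g7 mice. No cDC1 library overlapped between strains, and the log2 change was -2.97 ± 0.48 (SE, adjusted p = 1.3e-05, edgeR). Within 10.26.2015 it was -2.18 (adjusted p = 0.069) and within 01.05.2016 it was -3.88 (adjusted p = 0.0035). In Rag1-/- mice the gap was 1.47, 2.15 and 3.25 CPM in NOD Rag1-/- against 87.1, 82.9 and 123 CPM in B6 Rag1-/- cDC1, a log2 change of -5.41 ± 0.70 (SE, adjusted p = 9.6e-05, edgeR).

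In moDC and cDC2 Fcrla was higher in NOD mice. The moDC libraries had 86.8, 58.2, 13, 28 and 11.8 CPM in NOD mice, against 0.543 to 12.6 CPM (median 4.61) in B6g7 mice. Only moDC NOD 5 fell inside the B6g7 range, and the log2 change was 2.94 ± 0.52 (SE, adjusted p = 3.7e-05, edgeR). In cDC2 it ranged from 1.58 to 25.9 CPM (median 9.42) in NOD and from 0.373 to 4.84 CPM (median 1.26) in B6g7 mice, with overlap and a log2 change of 2.22 ± 0.57 (SE, adjusted p = 0.0036, edgeR), or 2.88 without cDC2 B6g7 5. Within 10.26.2015 the cDC2 change was 3.26 (adjusted p = 0.022) and within 01.05.2016 it was 1.14 (adjusted p = 0.4).

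B cell markers moved in the same libraries as Fcrla. Of the 10 genes of the B cell list in the table, 9 were higher in NOD moDC, 7 in NOD cDC2 and 8 in NOD cDC1. They summed to 2838, 1408, 675, 1251 and 601 CPM in moDC of NOD mice, against 186 to 408 CPM in moDC of B6g7 mice. In cDC2 the sums were 451 to 954 CPM in NOD and 244 to 473 CPM in B6g7 mice, which overlapped. In cDC1 they were 641, 349, 480.5, 68.8, 128 and 85.9 CPM in NOD mice, against 77.6 to 113 CPM in B6g7 mice. Fcrla and Fcgr2b were lower in NOD cDC1. Among the NOD libraries, in the same order, Fcrla had 28, 12.1, 18.9, 4.32, 6.6 and 3.9 CPM. Fcgr2b had 17.4, 18.3, 10.5, 6.79, 5.51 and 8.59 CPM. Within NOD cDC1 both were thus higher in libraries 1 to 3, with the larger B cell sums. Libraries 1 to 3 were sorted on 10.26.2015 and 4 to 6 on 01.05.2016. The B cell list also held counts in Rag1-/- mice, which lack mature B cells. In cDC2 it summed to 284 to 356 CPM in NOD Rag1-/- and 227 to 395 CPM in B6 Rag1-/- mice. In the same order of strains the sums were 63.1 to 78.7 and 109 to 162 CPM in moDC, and 27.1 to 43 and 47.5 to 70.7 CPM in cDC1. The sums are therefore not a measure of B cells alone. Fcrla in moDC of NOD Rag1-/- mice was at 0.742, 0.515 and 2.13 CPM, against 2.56 and 2.3 CPM in B6 Rag1-/- mice, and Pax5, which defines B cells, had 1 count over all Rag1-/- libraries. The moDC strain change of Fcrla in the Rag1-/- set minus that in the Rag-sufficient set was -4.04 ± 1.02 (SE, adjusted p = 0.041, edgeR), where 0.585% of genes were called. Of 12 pDC genes, 6 were higher and 1 lower in both moDC and cDC2 of NOD mice, where 16% and 11.8% of all genes were higher. The pDC list summed to 346 to 795 CPM in NOD and 285 to 602 CPM in B6g7 moDC, which overlapped. In cDC2 the sums were 169 to 387 and 217 to 293 CPM, which overlapped too. The part of B cells, pDC or other cells in the Fcrla and Fcgr2b levels of the Rag-sufficient libraries was not tested.

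**Figure D4:**
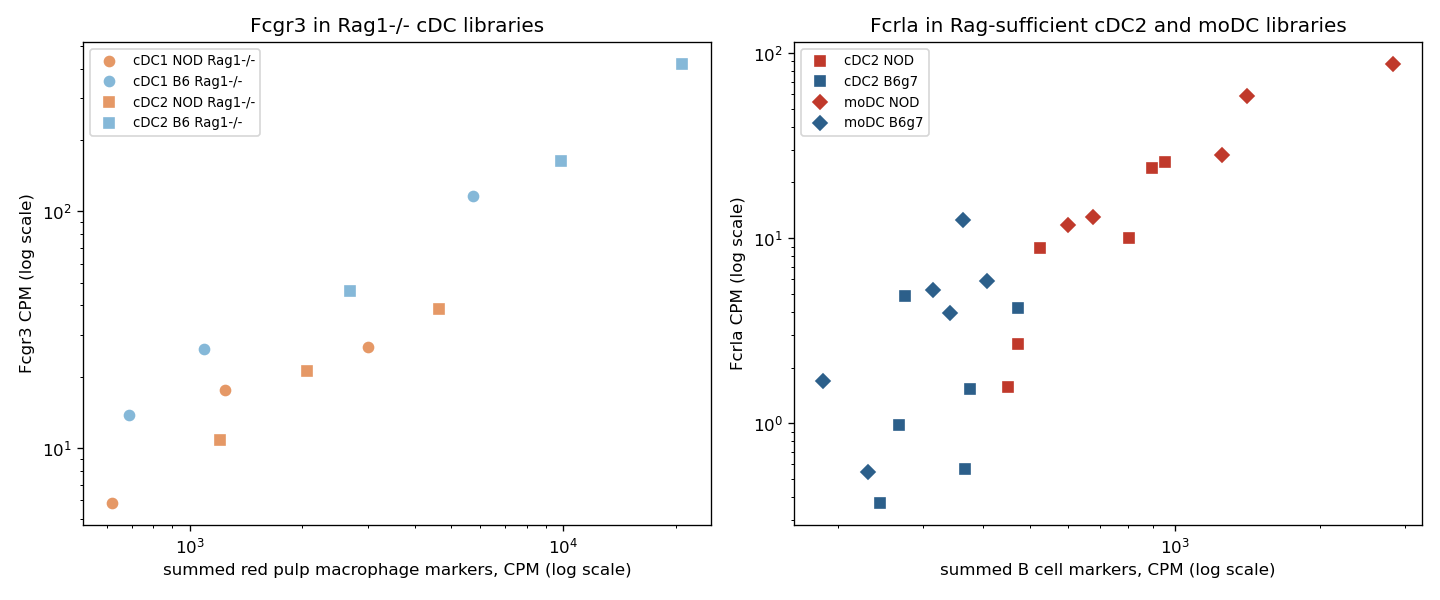
Levels of members plotted against the summed CPM of the marker list of another cell type in the same libraries, each point 1 library and both axes logarithmic, with NOD first in the legend. The moDC libraries of NOD mice with the most B cell marker counts, 2838 and 1408 CPM, are also those with the most Fcrla, 86.8 and 58.2 CPM.

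Fcrlb, the second intracellular relative, was found mainly in cDC1 of mice with the C57BL/6 background. In cDC1 of NOD mice 5 of 6 libraries were at 0 and the highest at 0.158 CPM, against 7.38 to 9.37 CPM (median 8.24) in B6g7 mice. That is 3 counts over the NOD libraries and 732 over the B6g7 libraries. The level relative to library size was 241-fold lower in NOD, with an exact 95% interval of 82.1 to 1170 that covers counting error only, and edgeR gave an adjusted p of 1.7e-09. In Rag1-/- mice cDC1 had 1 count over the NOD Rag1-/- libraries and 493 over the B6 Rag1-/- libraries, where the level was 504-fold lower in NOD Rag1-/- mice (exact 95% interval 90.1 to 19961, adjusted p = 0.0025, edgeR). Fcrlb entered the Rag-sufficient test through 6 B6g7 libraries of cDC1, 2 of B6g7 moDC and 1 of NOD moDC at 1 CPM or more, so its being tested depended on the group in which it was high. In the Rag1-/- set the highest NOD Rag1-/- library was at 0.552 CPM, in cDC2, so only B6 Rag1-/- libraries brought Fcrlb into that test. Neither p-value is free of that selection. Whether NOD sequence differences at Fcrlb lowered the number of reads assigned to it was not examined.

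Outside cDC1, Fcrlb had few counts. In cDC2 there were 4 counts in NOD and 44 in B6g7 mice, with a log2 change of -3.08 ± 0.80 (SE, adjusted p = 0.0038, edgeR), or -4.43 without cDC2 NOD 1. The cDC2 change was -2.27 (adjusted p = 0.25) within 10.26.2015 and -4.17 (adjusted p = 0.0057) within 01.05.2016. In monocytes there were 0 counts in NOD and 14 in B6g7 mice, which is at least 4.61-fold lower in NOD when 3 counts over the group are set as the floor. The monocyte adjusted p of 0.016 was 0.097 without monocyte B6g7 2 and 0.054 to 0.058 without each NOD library in turn (edgeR).

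Counted together, 5 of the 7 members were lower and 0 higher in cDC1 of NOD mice, where 8.93% of all tested genes were lower and 11.5% higher (20.4% called). In cDC2, 4 members were lower and 1 higher, where 10.2% of genes were lower and 11.8% higher (22% called). In moDC, 3 were lower and 2 higher, where 14.3% of genes were lower and 16% higher (30.4% called). In monocytes, 4 were lower and 0 higher, where 7.52% of genes were lower and 7.81% higher (15.3% called). In pDC, 4 were lower and 1 higher, where 7.4% of genes were lower and 5.15% higher (12.6% called). The median log2 change of the members was -1.55 in pDC, -1.16 in cDC1, -1.10 in monocytes, -0.50 in moDC and -0.48 in cDC2, and that of all genes lay between -0.00 and 0.02. Without mature lymphocytes, 3 members were lower in cDC1 of NOD Rag1-/- mice, where 0.898% of genes were lower and 0.769% higher (1.67% called), and 1 was lower in pDC, where 2.71% of genes were lower and 1.87% higher (4.58% called). In cDC2 of that set 0 members were called by edgeR, 4 had an unadjusted p under 0.05 and DESeq2 called 1, where edgeR called 1.26% of genes lower and 1.07% higher (2.34% in all). In moDC 0 members were called by edgeR and by DESeq2, with 1 at an unadjusted p under 0.05, where edgeR called 0.921% of genes lower and 0.571% higher (1.49% in all). The counts for cDC1 of both sets and for cDC2 and monocytes of the Rag-sufficient set include Fcrlb. It was tested mainly because of its level in B6 cDC1.

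**Figure D5:**
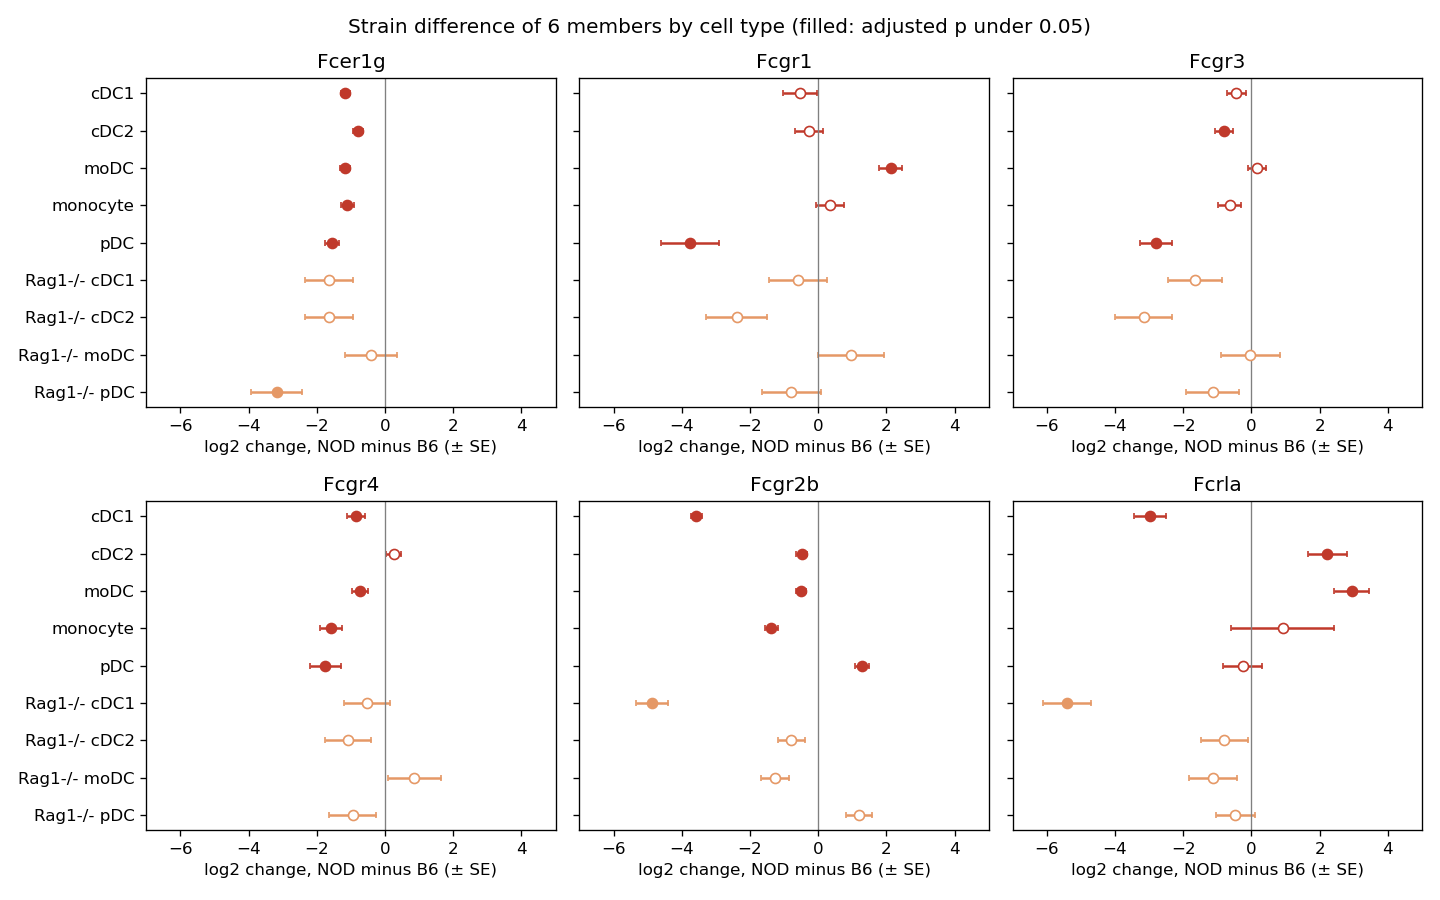
Log2 change, of 6 members in each cell type, for NOD against B6g7 mice and for the pair of Rag1-/- strains, with standard errors as bars and filled points for an adjusted p under 0.05 in edgeR. Fcgr2b lies at -3.58 in cDC1 and at 1.29 in pDC, whereas Fcer1g lies below 0 in all 5 Rag-sufficient cell types.

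Whether a strain change differed between cell types was tested by an F test over the 5 types in edgeR, which called 24.3% of genes. The adjusted p was 2e-17 for Fcgr2b, 4.3e-07 for Fcrla, 1.4e-05 for Fcgr1, 2.4e-05 for Fcrlb, 0.0015 for Fcgr4 and 0.0016 for Fcgr3. In the Rag1-/- set, where 0.312% of genes were called over 4 cell types, Fcgr2b (adjusted p = 0.00031) and Fcrla (adjusted p = 0.029) were called. With the replicate block, which pairs libraries by sort date in cDC1 of that set, neither passed (adjusted p = 0.054 and 0.14). The authors' deposited table, which tests transcripts, gave for the longer Fcgr2b form in cDC1 a log2 fold change of -3.97 (adjusted p = 4.1e-16) and for the shorter form -2.73 (adjusted p = 1.6e-06), both for NOD over B6g7. In cDC2 the authors' deposited table called neither form (adjusted p = 0.73 for the longer and 0.35 for the shorter).

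Other genes of the pathway were counted from lists, to be read beside the share of all tested genes. In cDC1 11.5% of all genes were higher and 8.93% lower in NOD, in cDC2 11.8% higher and 10.2% lower, in moDC 16% higher and 14.3% lower, in monocytes 7.81% higher and 7.52% lower, and in pDC 5.15% higher and 7.4% lower. Of 9 tested genes for further Fc receptors, 4 were higher and 0 lower in cDC1 of NOD mice, 4 and 2 in cDC2, 4 and 3 in moDC, 1 and 1 in monocytes, and 0 and 3 in pDC, and edgeR called 0 of 11 in any Rag1-/- comparison, with 1 or 2 at an unadjusted p under 0.05 in each. The median log2 change of this list was 2.43 in cDC1, 2.17 in cDC2, 0.13 in moDC, 0.00 in monocytes and -0.40 in pDC, beside -0.00 to 0.02 over all genes. Fcmr, the IgM receptor of B cells, averaged 82.1 ± 59.9 CPM in NOD and 11.1 ± 6.37 CPM in B6g7 moDC (SD, n = 5 and 6, adjusted p = 0.00079, edgeR). Fcer2a, the low-affinity IgE receptor, which is also in the B cell list, averaged 49 ± 27.2 CPM in NOD and 9.5 ± 4.01 CPM in B6g7 moDC (adjusted p = 0.0048, edgeR). Fcer1a and Ms4a2, the alpha and beta chains of the high-affinity IgE receptor of mast cells and basophils, were lower in NOD moDC, with Fcer1a at 0.531 ± 1.13 CPM in NOD and 45.2 ± 55.1 CPM in B6g7 mice. The SD of Fcer1a in B6g7 moDC exceeded its mean, and its log2 change was -5.87 ± 1.37 (SE, adjusted p = 0.0028, edgeR). Both belong to the mast cell and basophil list, of which 6 of 7 tested genes were lower in NOD moDC. Trim21, a cytosolic antibody receptor, was lower in pDC of NOD mice, at 13.7 ± 0.912 CPM in NOD and 25.9 ± 6.52 CPM in B6g7 mice (SD, n = 3 each, adjusted p = 0.0053, edgeR).

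Of 27 kinases and adaptors downstream of activating receptors, 6 were higher and 4 lower in cDC1 of NOD mice, 3 and 6 in cDC2, 5 and 7 in moDC, 2 and 2 in monocytes, and 2 and 3 in pDC, where 20.4% of all genes were called in cDC1, 22% in cDC2, 30.4% in moDC, 15.3% in monocytes and 12.6% in pDC. Their median log2 change lay between -0.15 and 0.04 in these comparisons. Lcp2, the adaptor SLP-76, was lower in NOD in all 9 strain comparisons. It averaged 52 ± 17.9 CPM in NOD and 132 ± 9.71 CPM in B6g7 cDC1 (SD, n = 6 each), with a log2 change of -1.37 ± 0.14 (SE, adjusted p = 1.7e-10, edgeR), and its log2 changes in the Rag1-/- set were -2.11 in cDC2, -1.62 in moDC, -1.53 in cDC1 and -1.37 in pDC. Syk, the kinase that docks on the ITAM of Fcer1g, was higher in cDC1 (108 ± 41.6 CPM in NOD and 67.3 ± 29.1 CPM in B6g7 mice, adjusted p = 2.4e-09) and also in cDC2, monocytes and pDC. Among Rag1-/- comparisons 0 of the 27 were higher, with 1 lower in cDC1, cDC2 and moDC and 2 in pDC, where 0.898%, 1.26%, 0.921% and 2.71% of all genes were lower.

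Of 9 phosphatases and partners of inhibitory receptors, 2 were higher and 0 lower in cDC1 of NOD mice, 3 and 1 in cDC2, 2 and 0 in moDC, 2 and 0 in monocytes and 0 and 1 in pDC, and edgeR called 0 in any Rag1-/- comparison, with 0 or 1 at an unadjusted p under 0.05 in each. Their median log2 change lay between -0.13 and 0.05 in the Rag-sufficient comparisons. Inppl1, which encodes the phosphatase SHIP2, averaged 12.4 ± 5.52 CPM in NOD and 4.82 ± 2.36 CPM in B6g7 cDC1 (SD, n = 6 each, adjusted p = 2.7e-09, edgeR). A list of 9 receptors was set down as using Fcer1g, and it includes Clec4a2, for which that use is not established. Of its 7 tested genes, 4 were higher and 0 lower in NOD cDC1, 5 and 1 in cDC2, 4 and 0 in moDC, 1 and 0 in monocytes and 1 and 2 in pDC, where Fcer1g itself was lower in every type. Over all genes 11.5% were higher in cDC1, 11.8% in cDC2, 16% in moDC, 7.81% in monocytes and 5.15% in pDC. Their median log2 change was 1.85 in cDC1, 1.00 in moDC, 0.90 in cDC2, 0.68 in monocytes and -0.36 in pDC, and in each Rag1-/- comparison 1 was higher and 0 lower, where 0.571% to 1.87% of all genes were higher. Clec4n (Dectin-2), a C-type lectin receptor, was lower in pDC at 5.37 ± 0.713 CPM in NOD and 28.2 ± 4.32 CPM in B6g7 mice, whereas Lilra6, which belongs to a family of closely similar receptor genes whose counts are therefore uncertain, was higher in pDC at 19 ± 4.53 CPM in NOD and 3.82 ± 1.63 CPM in B6g7 mice (SD, n = 3 each).

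All members but Fcgr1, which lies on chromosome 3, are within 1 stretch of chromosome 1. Of 14 tested genes next to the members on both chromosomes, 2 were higher and 3 lower in cDC1 of NOD mice, 4 and 4 in cDC2, 4 and 5 in moDC, 1 and 1 in monocytes and 4 and 3 in pDC, where 20.4% of all genes were called in cDC1, 22% in cDC2, 30.4% in moDC, 15.3% in monocytes and 12.6% in pDC. Their median log2 change was between -0.23 and 0.04 in these comparisons. Of these neighbours, edgeR called 0 in cDC1, cDC2 and moDC of Rag1-/- mice, with 1 or 2 at an unadjusted p under 0.05 in each, and in pDC 1 was higher and 2 lower, where 1.87% of all genes were higher and 2.71% lower. Among these, Ppox, an enzyme of haem synthesis, averaged 15.3 ± 2.46 CPM in NOD and 36.7 ± 2.43 CPM in B6g7 pDC (SD, n = 3 each, adjusted p = 9.6e-05, edgeR).

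Across the means of the 18 groups, each member was set beside the 10523 other genes by Pearson correlation of log2 level. Fcgr1 was close to Fcgr3 (r = 0.96) and Itgb5 (r = 0.96), and Fcgr3 was most like Hacd4 (r = 0.98), Klra2 (r = 0.97) and Fcgr1. Fcgr4 was most like Il18rap (r = 0.94) and Adrb1 (r = 0.92), Fcer1g most like Xaf1 (r = 0.93) and Ifi27l2a (r = 0.92), and Fcrla most like Ccr9, Pafah1b3 and Hs3st1 (r = 0.93 each). Fcgr2b had no gene above Dhx40 at r = 0.83, and Fcrlb none above Uqcc1 at r = 0.84. These correlations describe 18 group means that share sequencing runs and sort dates.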

How the data were processed

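RNA from 70 sorted spleen libraries was amplified with a SMART-seq v4 kit and sequenced, per the labels' protocols. The authors deposited a table of expected counts per RefSeq transcript, made with RSEM per the submitters' processing notes, and the sources used here name no aligner, version or genome build. They also deposited tables of log2 fold changes and adjusted p-values for each transcript, from limma per the submitters' processing notes, which were used only where named. Transcript counts were summed per gene and rounded. Genes reaching 1 CPM in 3 or more libraries were scaled by TMM (factors 0.646 to 1.33) and tested with edgeR 4.0.16 (quasi-likelihood, robust) in R 4.3.3, with Benjamini-Hochberg adjustment per comparison at a threshold of 0.05. The Rag-sufficient fit had 8 strata of cell type and sort date, 5 strain effects and 34 residual degrees of freedom (biological CV 22.1%). The Rag1-/- fit had no date term and 15 residual degrees of freedom (biological CV 44.2%). The SE is the log2 change divided by the square root of F. DESeq2 1.42.0 and limma 3.58.1 on log2 CPM (prior count 2) were among the alternatives, and the fits were checked on simulated data. Same-numbered libraries deviated together (correlations 0.41 to 0.54 in cDC1 and 0.38 to 0.57 in cDC2 of the Rag-sufficient set, where they share a sort date, and 0.11 to 0.27 in cDC1 of the Rag1-/- set), and a fit with the number as a block was an alternative. The members, gene lists and marker lists were chosen with earlier results of these data known. The 7 members are named in every comparison, with the 3 genes most correlated with each. Of each list, up to 2 higher and 2 lower genes of largest change are named per comparison, among called genes with a mean of at least 10 CPM in the higher group. Some genes that these rules select are not reported here. Intervals cover counting error only.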

Additional observations from a re-analysis of the deposited data

Results flagged for a closer look

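In 42 gene and group pairs with 4 to 10 libraries and a level above 0, 7 had 1 library apart from the others, and chance gives about 1 in 20. These were Fcgr1 at 5.6 CPM in cDC1 B6g7 1 and at 6.96 CPM in cDC2 NOD 1, Fcgr2b at 189 CPM in moDC NOD 2, Fcgr4 at 33.1 CPM in cDC2 B6g7 3, and Fcrlb at 0.158 CPM in cDC1 NOD 4, 0.203 CPM in cDC2 NOD 1 and 1.14 CPM in moDC NOD 1, each of them the highest library of its group.

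The strain change of 6 members differed between cell types of the Rag-sufficient set in edgeR's F test, with adjusted p of 2e-17 for Fcgr2b, 4.3e-07 for Fcrla, 1.4e-05 for Fcgr1, 2.4e-05 for Fcrlb, 0.0015 for Fcgr4 and 0.0016 for Fcgr3. In the Rag1-/- set the adjusted p was 0.00031 for Fcgr2b and 0.029 for Fcrla. The moDC strain change of Fcrla differed between the Rag1-/- and Rag-sufficient sets (adjusted p = 0.041, edgeR). Genotype, sequencing run and the B6 strain used cannot be told apart in that difference.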

How the results depend on the processing

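Of 28 member and strain comparison pairs that were called, 0 reversed under any setting and 21 held whichever 1 library was left out. Of the 13 other planned settings, 11 pairs held under each that applied to them. The fits of a single sort date covered 15 of the 28 pairs, those of cDC1, cDC2 and moDC in the Rag-sufficient set. The fit without a date term covered 24, and the fit without low RNA integrity 5. Pairs of pDC, monocytes and Rag1-/- mice therefore met fewer settings. These 11 were Fcgr2b in cDC1, monocytes, pDC and Rag1-/- cDC1, Fcrlb in cDC1 and Rag1-/- cDC1, Fcrla in moDC and Rag1-/- cDC1, Fcer1g in moDC, and Fcgr1 and Fcgr3 in pDC. Of these, Fcrlb was tested because of its level in B6 cells. The counts of members called moved as follows, and the cause was not tested. Without the sort date term they were 3 in cDC1, 2 in cDC2 and 2 in monocytes. With libraries of 10.26.2015 alone they were 3 in cDC1 and 2 in cDC2, and with those of 01.05.2016 alone 3 in moDC. With no scaling they were 3 in cDC2, and in the Rag1-/- set 1 in cDC2 and 2 in pDC. With each cell type fitted alone they were 2 in cDC2, and in the Rag1-/- set 1 in cDC2 and 0 in pDC. DESeq2 called 1 in Rag1-/- cDC2 and 2 in Rag1-/- pDC. All libraries in 1 fit gave 2 in cDC2, 3 in moDC, and in the Rag1-/- set 3 in cDC2, 1 in moDC and 2 in pDC. Without cDC2 B6g7 5 and 6, the 2 cDC2 libraries of low RNA integrity, the count in cDC2 was 3. Leaving out 1 library at a time gave 3 to 5 in cDC2, 3 to 5 in moDC, 3 to 4 in monocytes, 4 to 5 in pDC, and 0 to 1 in Rag1-/- cDC2 and in Rag1-/- pDC. The replicate block ended the calls of Fcrlb in monocytes (adjusted p = 0.088) and of Fcer1g in Rag1-/- pDC (-3.33, adjusted p = 0.25), where numbers do not pair libraries and 0 members were then called, and of the F tests over cell types in the Rag1-/- set (adjusted p = 0.054 for Fcgr2b and 0.14 for Fcrla), and it changed no other call. Without pDC B6 Rag1-/- 1 and 2, a setting chosen after seeing the data, the count in Rag1-/- pDC was 0.

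Among pairs that were not called, some changed sign. In moDC Fcgr3 was -0.08 with the replicate block, -0.10 without the sort date term and -0.34 within 10.26.2015, where Fcgr3 in cDC1 was 0.15 and Fcrlb in moDC 0.02. With no scaling, Fcgr3 in Rag1-/- moDC was 0.01 and Fcrla in Rag1-/- pDC 0.06. Leaving out 1 library gave Fcgr1 in cDC1 -0.91 to 0.07, and in the Rag1-/- set Fcgr1 in cDC1 -1.25 to 1.24, Fcgr4 in cDC1 -0.90 to 0.73 and Fcgr3 in moDC -0.46 to 0.57. Also chosen after seeing the data, leaving out Rag1-/- conventional dendritic cell libraries above 5000 CPM of macrophage markers gave Fcgr1 1.24 and Fcgr4 0.73 in cDC1, and Fcgr1 0.21, Fcgr4 0.02 and Fcrla 0.56 in cDC2, and leaving out pDC B6 Rag1-/- 1 and 2 gave Fcgr1 0.69, Fcgr3 0.26, Fcgr4 0.72 and Fcrla 0.38. Depth limits Fcrlb outside cDC1 and Fcgr1 in pDC, where libraries hold few counts.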

Other observations

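The ratio of Fcgr3 to Fcgr2b CPM within a library, which is not corrected for length and is read only between groups, differed by cell type and strain. In cDC1 its median was 0.539 in NOD mice (0.347 to 1.18) and 0.0632 in B6g7 mice (0.0465 to 0.0788), without overlap. In cDC1 of Rag1-/- mice it was 4.2 in NOD Rag1-/- (1.51 to 8.08) and 0.221 in B6 Rag1-/- mice (0.142 to 1.01). In monocytes it was 4.03 in NOD and 2.29 in B6g7 mice, whereas in pDC the NOD ratio was the lower one, at 0.0107 in NOD and 0.22 in B6g7 mice. The genes share coding sequence, so reads could pass from one to the other in this ratio, and it was not tested.

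Transcript shares of Fcrla differed as well. A noncoding transcript took 1.1 ± 0.297% of Fcrla counts in pDC of NOD mice and 5.58 ± 0.619% in pDC of B6g7 mice (SD, n = 3 each). The authors' deposited table gave for this transcript in pDC of the Rag1-/- set a log2 fold change of -3.52 (adjusted p = 0.0017), NOD Rag1-/- over B6 Rag1-/-.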
